A study of Canis lupus familiaris with 36 samples.

Results

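The let-7 family with miR-98 was followed in the hearts of dogs with and without cardiac hemangiosarcoma (HSA), a malignant tumor of the cells that line blood vessels. Its members were chosen by name. They were cfa-let-7a, cfa-let-7b, cfa-let-7c, cfa-let-7d, cfa-let-7e, cfa-let-7f, cfa-let-7g, cfa-let-7j and cfa-miR-98, which are 9 of the 453 mature microRNAs (miRNAs) listed in the cardiac tables. Where a mature miRNA was listed under several precursors, the entry with the highest total was used. Small RNA was sequenced from formalin-fixed, paraffin-embedded (FFPE) heart tissue in 12 libraries, each from the archived block of a dog. The 6 cardiac HSA libraries came from dogs with a histological diagnosis of the tumor in the heart. The 6 control libraries came from the hearts of dogs that died of causes other than a tumor and were examined at necropsy. No drug, age or breed is named in the labels of these libraries, and all blocks came from the archive of a single diagnostic laboratory. By the study's own account the dogs with HSA were older than the controls, earlier chemotherapy did not bar a dog, and whole tumor tissue was used, so age, treatment and condition cannot be told apart. Conditions were taken from the sample titles. The treatment entries contradict the titles in each of the 12 heart libraries, so every direction below rests on the titles.

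let-7 is a conserved family of miRNAs that share a seed, the stretch near the 5′ end with which a miRNA recognizes its targets. miR-98 belongs to it by its seed despite its name. The family is abundant in differentiated adult tissue, its known targets include RAS, HMGA2, MYC and LIN28 transcripts, and the LIN28 proteins in turn block the maturation of let-7 precursors, so the family is best known as a brake on growth that many tumors release. The mature members differ from each other at few bases, so a read can be assigned to the wrong member, and the split of reads between the members is uncertain to that extent.

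The libraries held 6999830 to 11668820 counts in control and 2018959 to 8999025 counts in cardiac HSA after entries with identical name and counts had been merged. The factors of the trimmed mean of M values (TMM), which scale libraries to each other beyond their depth, were 0.769 to 0.889 among controls and 0.948 to 1.96 among cardiac HSA libraries. HSA replicate 2 had the highest factor. All 8 listed miRNAs of heart and skeletal muscle had reads in both groups, and together they held 20.2% to 27.9% of the counts in control but 0.122% to 27.4% in cardiac HSA. In HSA replicates 2, 3 and 4 this share was 5.38%, 0.122% and 5.78%, so the defining miRNAs of heart muscle were low in these 3 libraries labelled as heart. Library names are built differently in the 2 conditions and no batch is labelled, so a batch and the condition cannot be told apart. In bulk tissue, fewer cells of a type and less RNA per cell cannot be told apart either.

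The family held a large part of all small RNA in both groups. Shares of the total, here and for the muscle list, are taken over 1 entry per mature miRNA, which leaves 5544912 to 9336949 counts in control and 1656084 to 7254770 in cardiac HSA. The summed counts of the family made up 15.0% to 20.4% of this total in control, with a median of 16.9%, and 16.2% to 31.6% in cardiac HSA, with a median of 20.2%. After TMM scaling the order of the medians turned around. The summed level was then 146443 to 181795 counts relative to library depth on the usual CPM scale in control, with a median of 162814, and 100587 to 218844 CPM in cardiac HSA, with a median of 140410. HSA replicate 4 was above all controls and HSA replicates 1, 2, 5 and 6 were below all controls, so the cardiac HSA libraries lay on both sides of the control range. Before TMM scaling HSA replicates 2 and 5 held 24.8% and 21.1% of their counts in the family, above all controls. Their places below the controls rest on their TMM factors of 1.96 and 1.17. HSA replicates 1 and 6 lay within the control range before TMM scaling. The mean log2 level of the sum differed by -0.20, against a pooled standard deviation (SD) of 0.27 between libraries. With the factors of all 12 libraries kept, this difference was -0.10 without HSA replicate 2 and -0.32 without HSA replicate 4. With scaling by library size alone the same difference was 0.36. Without the counts of the 8 muscle miRNAs, the family held 20.1% to 26.0% of the remaining counts in control and 19.2% to 33.5% in cardiac HSA, and the ranges overlapped.

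**Figure D1:**
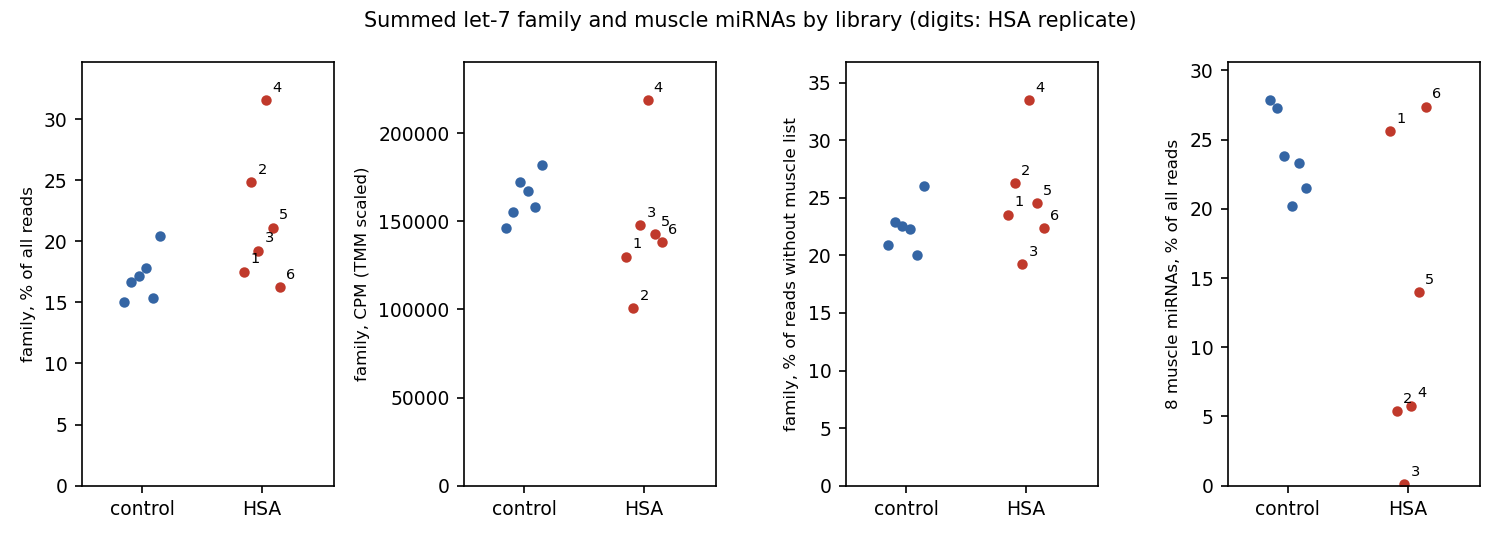
Summed let-7 family and muscle miRNAs in each library. Each point is 1 library, blue for the 6 control hearts and red for the 6 cardiac HSA, with the replicate number beside each HSA point. The panels show the family as a percentage of all reads, the family in CPM after TMM scaling, the family as a percentage of reads outside the muscle list, and the 8 muscle miRNAs as a percentage of all reads. HSA replicate 4 has the highest family level in the first 3 panels, and HSA replicate 3 has a muscle share of 0.122%.

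The members covered a wide range of levels, and their order was nearly the same in both groups. In control the order of the mean levels was cfa-let-7a, cfa-let-7f, cfa-let-7g, cfa-let-7b, cfa-let-7c, cfa-let-7e, cfa-miR-98 and cfa-let-7d, and each step of it held in 6 of 6 libraries. The steps were uneven. cfa-let-7a exceeded cfa-let-7f by a mean ratio of 1.26, with ranges across control libraries that just overlapped, while cfa-miR-98 exceeded cfa-let-7d by a ratio of 9.71. In cardiac HSA the mean levels stood in the same order. Every step again held within 6 of 6 libraries, except that cfa-let-7a exceeded cfa-let-7f in 5 of 6. The ratio of the mean levels of cfa-let-7c and cfa-let-7e was 2.99 in control and 2.04 in cardiac HSA, that of cfa-let-7e and cfa-miR-98 was 1.92 and 1.35, and that of cfa-miR-98 and cfa-let-7d was 9.71 and 22.9. Levels of different members are compared here in CPM without a length correction, since mature miRNAs are of nearly equal length.

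**Figure D2:**
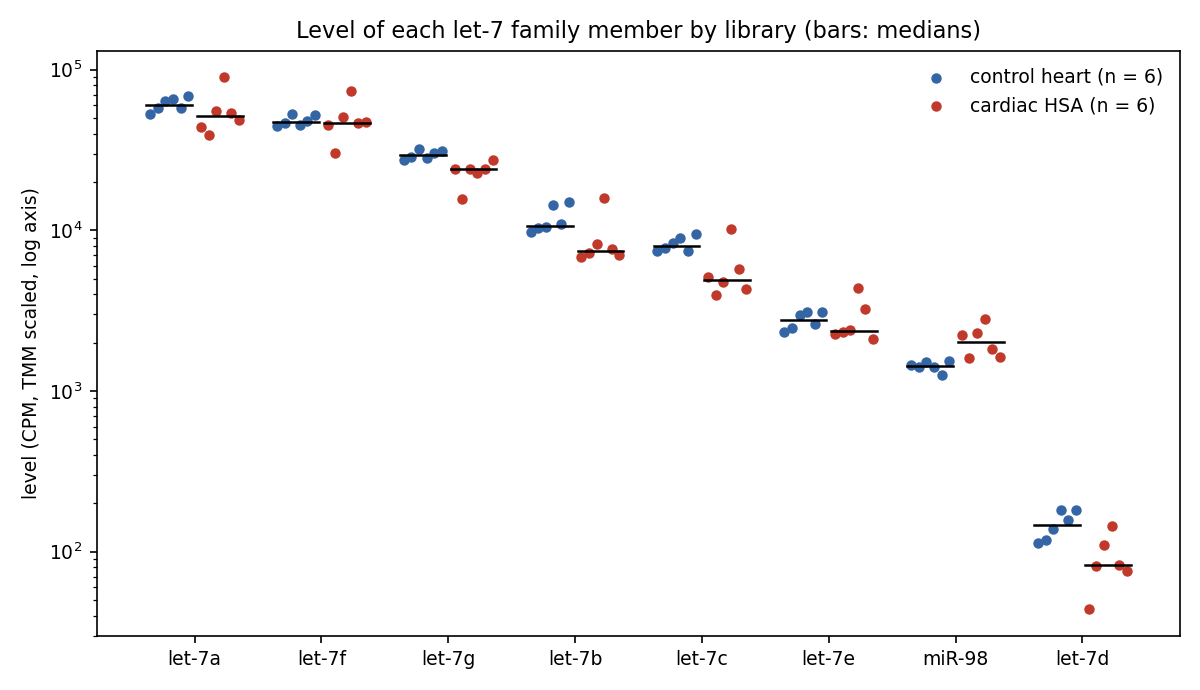
Level of the 8 members with reads in each library. The vertical axis is the level in TMM-scaled CPM on a log axis, each point is 1 library (blue for control heart, red for cardiac HSA, 6 each), and black bars are group medians. The members are ordered by their mean in control, and the 6 red points of miR-98 lie above its 6 blue points.

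cfa-let-7j had 0 reads in all 12 libraries. A count of 0 allows up to 3 counts, which is 0.305 to 0.482 CPM in the control libraries and 0.332 to 1.34 CPM in the cardiac HSA libraries, counting error only. It did not pass the filter on low counts and has no comparison, so 8 of the 9 members were tested.

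Cardiac HSA was compared with control heart to ask which miRNAs the tumor-bearing tissue holds at other levels. A miRNA was called when its Benjamini-Hochberg adjusted p was under 0.01 in edgeR's quasi-likelihood test and its absolute log2 fold change was at least 1. Of the 225 mature miRNAs tested, 58 were called, which is 25.8%, with 42 higher and 16 lower in cardiac HSA. This count was 25, 29, 26, 24 and 38 without control replicate 1, 2, 4, 5 and 6, and 38 without HSA replicate 4. Of the 8 tested members 0 were called. At an adjusted p under 0.05 with any fold, 2 of 8 members passed, against 45.3% of all tested miRNAs. At an unadjusted p under 0.05, 4 of 8 members passed, against 53.3%. DESeq2 also called 0 members, while limma on the deposited CPM and edgeR with library-size scaling called 1 each, cfa-miR-98. The median log2 fold change was -0.26 over the 8 members and 0.34 over all 225 miRNAs. HSA replicate 4 weighed on these values. Without it, 6 members had an adjusted p under 0.05 with factors computed anew and 4 with the factors of all 12 libraries kept. The median was then -0.60 over the members and 0.16 over all miRNAs with factors anew, and -0.35 and 0.41 with kept factors. With the muscle miRNAs left out of the factors, 4 members had an adjusted p under 0.05. The share of all tested miRNAs at this limit was not computed for these 3 alternative fits. These member counts can therefore not be set against the other miRNAs, of which 45.3% passed over all 12 libraries.

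cfa-miR-98 was the 1 member with no overlap between the groups. Its level ran from 1262 to 1531 CPM in control, with a median of 1439, and from 1604 to 2790 CPM in cardiac HSA, with a median of 2032. Such a lack of overlap, in either direction, was seen for 25.8% of all tested miRNAs. The log2 fold change was 0.52 (standard error (SE) 0.15, 95% interval 0.19 to 0.86) with an edgeR adjusted p of 0.0148, so it missed both limits of a call. This difference depended on single libraries through the scaling. With the factors computed anew, it was 0.16 without HSA replicate 4 (edgeR adjusted p = 0.412) and 0.23 without HSA replicate 1 (edgeR adjusted p = 0.284). With the factors of all 12 libraries kept, it was 0.42 without HSA replicate 4 (edgeR adjusted p = 0.0270) and 0.50 without HSA replicate 1 (edgeR adjusted p = 0.0293).

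cfa-let-7d, the least abundant member with reads, had the lowest fold change of the family. Its level ran from 114 to 181 CPM in control, with a median of 147, and from 43.9 to 145 CPM in cardiac HSA, with a median of 82.2. The groups overlapped through HSA replicate 4, and the other 5 HSA libraries were below all controls after TMM scaling. In the deposited CPM, which carry no TMM factor, only HSA replicates 1 and 6 were below all controls. HSA replicates 2 and 4 were above all controls there. Its log2 fold change was -0.71 (SE 0.27, 95% interval -1.30 to -0.13, edgeR adjusted p = 0.0450). Between 98 and 1396 reads lay behind these values, by far the smallest numbers among the 8 members, and HSA replicate 1 with 98 reads was also the lowest in CPM. Without HSA replicate 4 and with factors computed anew, cfa-let-7d was called at -1.15 (edgeR adjusted p = 0.00859). With the factors of all 12 libraries kept it was -0.90 (edgeR adjusted p = 0.0124) and was not called.

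cfa-let-7c, cfa-let-7g and cfa-let-7b showed a like picture after TMM scaling, with 5 of 6 HSA libraries below all controls in each. In the deposited CPM only HSA replicates 1 and 6 were below all controls for cfa-let-7c and for cfa-let-7b. HSA replicate 4 was above all controls there for both, and HSA replicate 2 for cfa-let-7b. cfa-let-7c ran from 7422 to 9518 CPM in control (median 8037) and from 3977 to 10137 CPM in cardiac HSA (median 4939). Its log2 fold change was -0.54 (SE 0.22, 95% interval -1.02 to -0.06, edgeR adjusted p = 0.0656). The library above the controls was HSA replicate 4, and the other 5 reached at most 5727 CPM. Without that library cfa-let-7c was called at -1.06 with factors computed anew (edgeR adjusted p = 0.0016) and was not with kept factors, where its fold was -0.79 on the log2 scale (edgeR adjusted p = 0.00285).

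cfa-let-7g was the member with the smallest relative spread. It ran from 27395 to 32015 CPM in control (median 29398) and from 15733 to 27481 CPM in cardiac HSA (median 24062), with a log2 fold change of -0.36 (SE 0.16, 95% interval -0.70 to -0.02, edgeR adjusted p = 0.0790). HSA replicate 6 alone reached into the control range. The lowest library, HSA replicate 2, was above all controls in the deposited CPM, at 29004 against at most 24569. HSA replicates 3, 4 and 5 were above all controls there as well, and no HSA library was below them. With factors computed anew cfa-let-7g was at -0.59 without HSA replicate 4 (edgeR adjusted p = 0.0430) and at -0.62 without HSA replicate 1 (edgeR adjusted p = 0.0441), and with kept factors at -0.36 and -0.38 (edgeR adjusted p = 0.0908 and 0.0974).

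cfa-let-7b ran from 9815 to 14923 CPM in control (median 10699) and from 6858 to 15826 CPM in cardiac HSA (median 7433), with a log2 fold change of -0.42 (SE 0.23, 95% interval -0.93 to 0.08, edgeR adjusted p = 0.155). HSA replicate 4 was above all controls, and the next highest HSA library had 8249 CPM. Without HSA replicate 4 cfa-let-7b was at -0.92 with factors computed anew (edgeR adjusted p = 0.00595) and at -0.67 with kept factors (edgeR adjusted p = 0.0066), short of a call by its fold alone.

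For the most abundant members and for cfa-let-7e no difference between the groups was detected over all 12 libraries with TMM scaling. With library-size scaling the log2 fold change was 0.54 for cfa-let-7f (edgeR adjusted p = 0.0163) and 0.59 for cfa-let-7e (edgeR adjusted p = 0.0465). That of cfa-let-7a was then 0.40 (edgeR adjusted p = 0.110), and the median of all tested miRNAs was 0.97. cfa-let-7a ran from 53281 to 68626 CPM in control (median 60715) and from 39464 to 89615 CPM in cardiac HSA (median 51135), with a 95% interval of the log2 fold change from -0.61 to 0.31 (edgeR adjusted p = 0.572). cfa-let-7f ran from 44641 to 53293 CPM in control (median 47469) and from 30168 to 73277 CPM in cardiac HSA (median 46641), with an interval from -0.43 to 0.45 (edgeR adjusted p = 0.964). In both members HSA replicate 2 was the lowest library and HSA replicate 4 the highest. The low place of HSA replicate 2 rests on its TMM factor of 1.96. In the deposited CPM, which carry no such factor, it had 72753 for cfa-let-7a and 55615 for cfa-let-7f. The controls there reached at most 53836 and 41247. HSA replicate 2 was not alone above them in the deposited CPM. HSA replicates 3, 4 and 5 also exceeded all controls for cfa-let-7a, and HSA replicates 1, 3, 4 and 5 for cfa-let-7f.

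cfa-let-7e ran from 2316 to 3119 CPM in control (median 2785) and from 2121 to 4363 CPM in cardiac HSA (median 2356). The interval of its log2 fold change was -0.41 to 0.43 (edgeR adjusted p = 0.964). Here 2 HSA libraries were above all controls and 2 below, so the HSA values lay on both sides. These results also turned on HSA replicate 4. Without it and with factors computed anew, cfa-let-7a was at -0.60 (edgeR adjusted p = 0.0284), cfa-let-7e at -0.44 (edgeR adjusted p = 0.0358), outside the interval above, and cfa-let-7f at -0.39 (edgeR adjusted p = 0.149). With kept factors they were at -0.34, -0.16 and -0.14 (edgeR adjusted p = 0.0886, 0.375 and 0.484).

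The signs of these small differences depended on how the libraries were scaled, whereas 7 of the 8 members stayed below the median of all tested miRNAs. With library-size scaling the 225 tested miRNAs had a median log2 fold change of 0.97 rather than 0.34, and that of the members was 0.29 rather than -0.26, with 7 of 8 members above 0 rather than 3. Relative to the median of all tested miRNAs in the same fit, cfa-let-7d lay at -1.06 with TMM factors and at -1.10 with library-size scaling. cfa-let-7c lay at -0.88 and -0.96, and cfa-let-7a at -0.49 and -0.57. Under every alternative fit run here, those without 1 of the libraries included, the members other than cfa-miR-98 lay below that median. cfa-miR-98 lay above it by 0.11 to 0.18 log2 units over the 6 scalings tried, but below it with DESeq2 (0.46 against a median of 0.81 over 320 miRNAs) and with no filter on low counts (0.49 against 0.83). Without HSA replicate 4 it lay at the median, 0.16 against 0.16 with factors anew and 0.42 against 0.41 with kept factors. The muscle list held less of the counts in HSA replicates 2, 3, 4 and 5 than in any control, and its part in the members' differences was not tested.

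**Figure D3:**
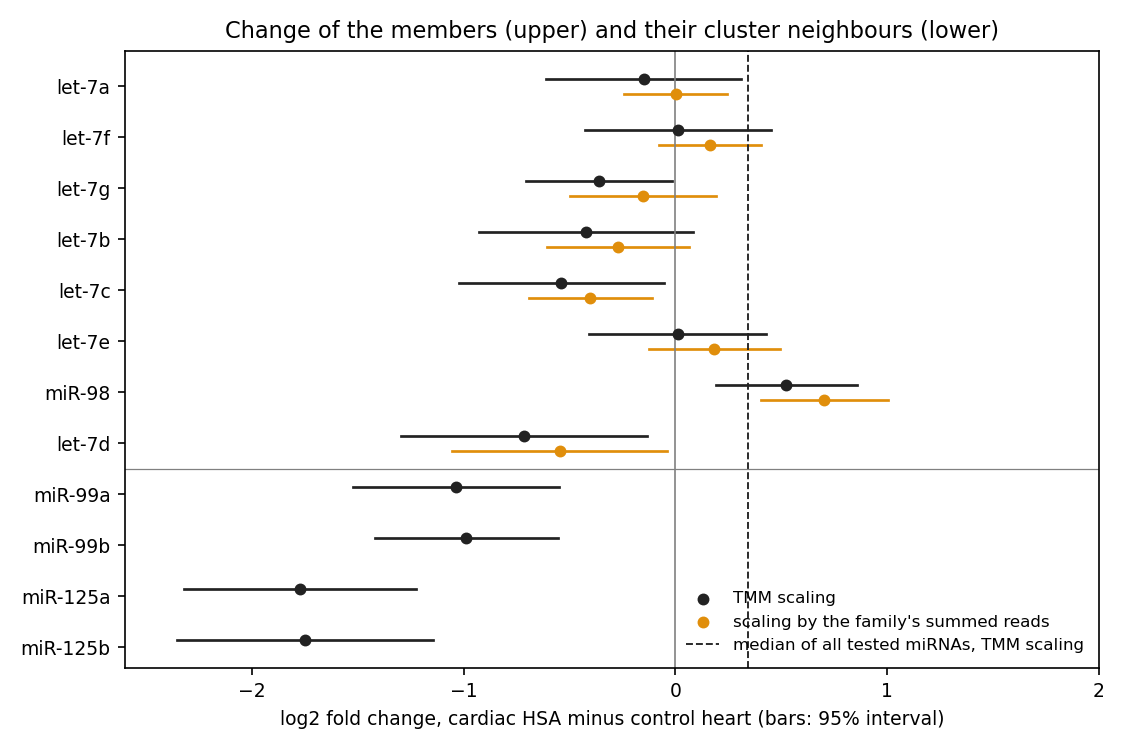
Log2 fold change of cardiac HSA over control heart for the 8 tested members (upper) and 4 cluster neighbors (lower). Points are edgeR estimates and bars are 95% intervals, in black with TMM scaling and in orange with the family's summed reads as library size. The solid vertical line is no change and the dashed line is the median of all 225 tested miRNAs with TMM scaling, 0.34. The 4 neighbors lie left of all members with TMM scaling.

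The makeup of the family does not depend on how libraries are scaled to each other, so the test was repeated with the summed counts of the 9 members as library size. On this scale 23.6% of all tested miRNAs were called and 0 members were, with 3 members at an unadjusted p under 0.05 and 2 at an adjusted p under 0.05. The share of all tested miRNAs at these limits of 0.05 was not computed on this scale, so these member counts have no background. At an adjusted p under 0.01 with any fold, 1 of 8 members passed, cfa-miR-98, against 24.4% of all tested miRNAs. Without overlap between the groups were 2 of 8 members, cfa-miR-98 and cfa-let-7c, against 21.8% of all tested miRNAs.

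cfa-miR-98 rose within the family. It made up 0.798% to 0.996% of the family reads in control, with a median of 0.865%, and 1.17% to 1.72% in cardiac HSA, with a median of 1.41%. All 6 HSA libraries were above all controls, and the 6 values of each group formed a separate range. The log2 fold change of its share was 0.70 (SE 0.14, 95% interval 0.40 to 1.00, edgeR adjusted p = 0.00233), a ratio of 1.63. Leaving out any 1 library gave 0.64 to 0.75 with edgeR adjusted p-values from 0.0015 to 0.00883. On this scale the 225 tested miRNAs had a median log2 fold change of 0.59, so cfa-miR-98 lay 0.12 above the typical miRNA and the other 7 members lay below it.

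The share of cfa-let-7c was lower in every cardiac HSA library than in any control. Its share was 4.72% to 5.38% in control (median 5.03%) and 3.12% to 4.63% in cardiac HSA (median 3.94%). The gap between the groups was narrow, with HSA replicate 4 at 4.63% and the lowest control at 4.72%. The log2 fold change of the share was -0.40 (SE 0.13, 95% interval -0.69 to -0.11, edgeR adjusted p = 0.0293), which missed the limit of 0.01. Leaving out 1 library gave -0.35 without HSA replicate 6 to -0.47 without HSA replicate 4, where the edgeR adjusted p was 0.00843, and leaving out control replicate 2, 4 or 6 brought the edgeR adjusted p to 0.0539, 0.0622 and 0.0568.

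The other shares overlapped. cfa-let-7d made up 0.0757% to 0.108% in control and 0.0338% to 0.0809% in cardiac HSA, with a log2 fold change of -0.55 (SE 0.23, edgeR adjusted p = 0.0752). cfa-let-7b made up 6.07% to 8.63% in control and 5.10% to 7.23% in cardiac HSA (edgeR adjusted p = 0.160). Here HSA replicates 2 and 4, at 7.20% and 7.23%, stood apart from the other 4, which reached at most 5.57%.

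cfa-let-7f made up 26.9% to 30.9% in control and 29.99% to 34.7% in cardiac HSA, with 5 of 6 HSA libraries above all controls, and its log2 fold change was 0.16 (SE 0.11, edgeR adjusted p = 0.248). cfa-let-7a made up 36.3% to 39.5% in control and 34.0% to 40.9% in cardiac HSA, and its log2 fold change was 0.00 with a 95% interval from -0.24 to 0.24. cfa-let-7a and cfa-let-7f together thus held most of the family reads in every library.

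cfa-let-7g made up 16.8% to 19.1% in control and 10.4% to 19.9% in cardiac HSA (edgeR adjusted p = 0.435). The lowest value was in HSA replicate 4, the library with the highest summed family level, where the next lowest HSA library had 15.6%. cfa-let-7e made up 1.58% to 1.86% in control and 1.54% to 2.31% in cardiac HSA (edgeR adjusted p = 0.301), and 3 HSA libraries were above all controls.

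**Figure D4:**
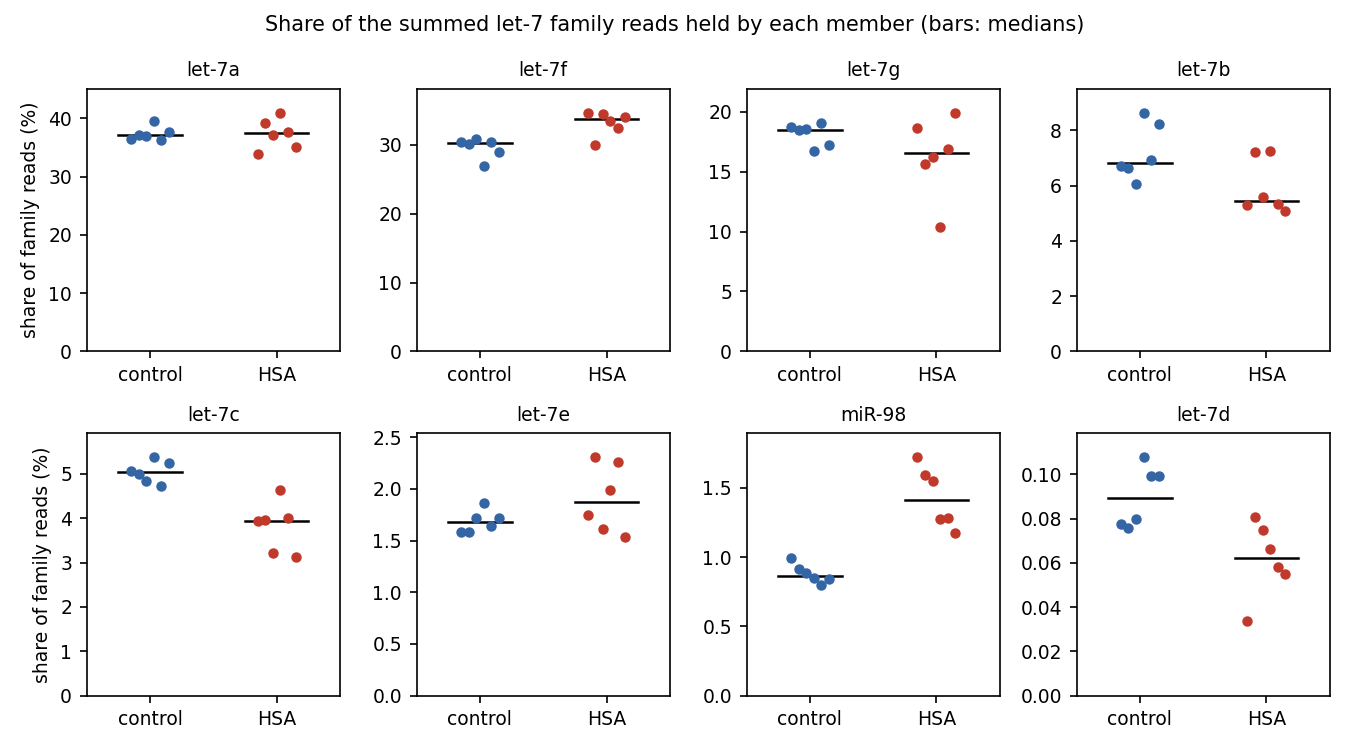
Share of the summed family reads held by each of 8 members. Each panel is 1 member with its own vertical axis in percent starting at 0, each point is 1 library (blue for control, red for cardiac HSA, 6 each), and black bars are medians. The groups are apart for miR-98 (0.798% to 0.996% against 1.17% to 1.72%) and for let-7c (4.72% to 5.38% against 3.12% to 4.63%), and HSA replicate 4 is the low point of let-7g at 10.4%.

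Among control hearts several members were steady. Their spread was ranked among miRNAs of all levels from 10 CPM up and was not matched for abundance. The coefficient of variation (CV) of cfa-let-7g across the 6 control libraries was 6.29%, the 7th lowest of 189 miRNAs with a mean of at least 10 CPM, that of cfa-miR-98 was 6.78% (11th) and that of cfa-let-7f was 7.69% (13th). The median CV of the 189 miRNAs was 20.1%. cfa-let-7b and cfa-let-7d, at 19.1% and 20.1%, lay near that median. In cardiac HSA the median CV was 45.5%, the members ran from 17.0% for cfa-let-7g (9th lowest) to 40.1% for cfa-let-7c (80th), and all 8 were below the median.

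Correlations between members across the 12 libraries depended on whether the difference between the groups was left in. Over the 28 pairs of members, Pearson's r of the log2 levels ran from -0.43 to 0.93 with a median of 0.57, and the pairs of cfa-miR-98 with cfa-let-7b, cfa-let-7c, cfa-let-7d and cfa-let-7g were negative, at -0.08, -0.14, -0.36 and -0.43. After removal of the group means r ran from -0.03 to 0.94 with a median of 0.69. The median over all 17766 pairs of the 189 miRNAs was 0.00 by both measures. cfa-let-7g stood apart from most members after removal of the group means, with 0.03 to cfa-let-7b and 0.08 to cfa-let-7e, but 0.63 to cfa-let-7f. These values share libraries, depth and scaling and are given as a description.

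In the dog genome several members lie beside other miRNA genes, as RefSeq orders them in the assembly UU_Cfam_GSD_1.0, which is not the assembly of the counts and was used for neighbors only. cfa-let-7e lies between the genes of miR-125a and miR-99b, cfa-let-7c between those of miR-99a and miR-125b, and a further copy of miR-99a and miR-125b flanks a gene of cfa-let-7a. Genes that lie this close are often transcribed together, but each mature miRNA is then cut, loaded and degraded on its own. cfa-let-7d lies beside cfa-let-7f, cfa-let-7b beside a gene of cfa-let-7a, and cfa-let-7g beside a gene of miR-135a, while cfa-miR-98 and cfa-let-7j had no miRNA gene of the table within 100000 bases. cfa-let-7a, miR-99a and miR-125b each have several genes, and a mature count cannot be traced to 1 of them.

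Each of the 4 cluster neighbors in the tables was lower in all 6 cardiac HSA libraries than in any control, a pattern seen in 10.7% of all tested miRNAs. Called lower were 3 of the 4, against 7.11% of all tested miRNAs. The list of neighbors was written with earlier results of these data known, so these counts are a description and no test of the list. miR-125a ran from 14625 to 22425 CPM in control (median 19443) and from 2878 to 7444 CPM in cardiac HSA (median 5693), with a log2 fold change of -1.77 (SE 0.25, edgeR adjusted p = 0.000935). miR-125b ran from 28988 to 38909 CPM (median 32470) and from 5460 to 16722 CPM (median 8639), with a log2 fold change of -1.75 (SE 0.28, edgeR adjusted p = 0.000965). Both groups of values were wide apart for miR-125a and miR-125b, which are related to each other by sequence and belong to the family of the nematode lin-4 miRNA.

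miR-99a ran from 15486 to 20204 CPM in control (median 17815) and from 4888 to 11512 CPM in cardiac HSA (median 9006), and was called with a log2 fold change of -1.04 (SE 0.22, edgeR adjusted p = 0.00384). miR-99b ran from 2733 to 3954 CPM (median 3137) and from 1066 to 2298 CPM (median 1540), with a log2 fold change of -0.99 (SE 0.20, edgeR adjusted p = 0.00271). It missed a call by its fold alone. The fifth neighbor on the list, miR-100, had no entry of its own in the tables used here.

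Ratios of reads between neighbors within a library are free of any scaling between libraries. They were added after the data were seen. In the pairs with miR-99 or miR-125 the denominators are the neighbors that were lower in cardiac HSA, and miR-125b and miR-99a each serve in 2 pairs. The remaining pairs have cfa-let-7b, cfa-let-7f or miR-135a-5p as denominator, and no background was computed for them. There were 9 pairs in all. Each log2 ratio was compared by an exact two-sided permutation test over the libraries, with p adjusted over the 9 ratios. Folds of ratios were taken from the difference between the group means of the log2 ratios. The ratio of cfa-let-7e to miR-125a was 0.116 to 0.168 in control (median 0.148) and 0.285 to 0.790 in cardiac HSA (median 0.557). The groups did not overlap, and the ratio was 3.52-fold higher in cardiac HSA (exact permutation p = 0.00216, the smallest that 6 against 6 libraries allow, adjusted p = 0.00974). The ratio of cfa-let-7a to miR-125b was 1.48 to 2.15 in control and 2.90 to 9.00 in cardiac HSA, again without overlap and 3.18-fold higher (exact permutation p = 0.00216, adjusted p = 0.00974).

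The further pairs with miR-99 and miR-125 overlapped. cfa-let-7e over miR-99b was 0.648 to 1.14 in control and 0.923 to 3.35 in cardiac HSA, 1.99-fold higher (exact permutation p = 0.00649, adjusted p = 0.0130). cfa-let-7c over miR-125b was 0.192 to 0.298 in control and 0.258 to 0.987 in cardiac HSA, 2.39-fold higher (exact permutation p = 0.00866, adjusted p = 0.0130).

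cfa-let-7a over miR-99a was 2.64 to 4.41 in control and 4.29 to 9.37 in cardiac HSA, 1.87-fold higher (exact permutation p = 0.00866, adjusted p = 0.0130). cfa-let-7c over miR-99a was 0.367 to 0.611 in control and 0.382 to 0.881 in cardiac HSA, 1.41-fold higher, and did not pass (exact permutation p = 0.0563, adjusted p = 0.0563). Of the 6 pairs with miR-99 or miR-125, 5 had a higher ratio in cardiac HSA at an adjusted p under 0.05. Most miRNAs rose over these denominators. At an unadjusted exact permutation p under 0.05, and with 0.5 added to each numerator, the ratio was higher in cardiac HSA for 75.9% of the 224 other tested miRNAs over miR-125a, 78.1% over miR-125b, 62.5% over miR-99a and 62.5% over miR-99b. The median change of these ratios was 4.03-fold over miR-125a, 4.08-fold over miR-125b, 2.40-fold over miR-99a and 2.28-fold over miR-99b, and each of the 6 member ratios changed by less than the median for its denominator.

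Of the pairs within the family, cfa-let-7d over cfa-let-7f was 0.00251 to 0.00400 in control and 0.000976 to 0.00270 in cardiac HSA, 0.595 of the control ratio (exact permutation p = 0.00866, adjusted p = 0.0130). cfa-let-7a over cfa-let-7b was 4.58 to 6.08 in control and 5.45 to 7.06 in cardiac HSA, 1.21-fold higher (exact permutation p = 0.0152, adjusted p = 0.0195). cfa-let-7g over miR-135a-5p spread over more than any other pair, 1990 to 17575 among controls and 60.6 to 7328 among cardiac HSA libraries (exact permutation p = 0.0281, adjusted p = 0.0317). HSA replicates 1 and 6 lay within the control range of that ratio and the other 4 below it. In control replicate 2 the ratio of 17575 came with 281202 reads of cfa-let-7g, so miR-135a-5p had few reads there. HSA replicate 5, at 60.6, had 128806 reads of cfa-let-7g. The spread thus lay mostly in miR-135a-5p, and no background over other miRNAs was computed for this denominator.

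**Figure D5:**
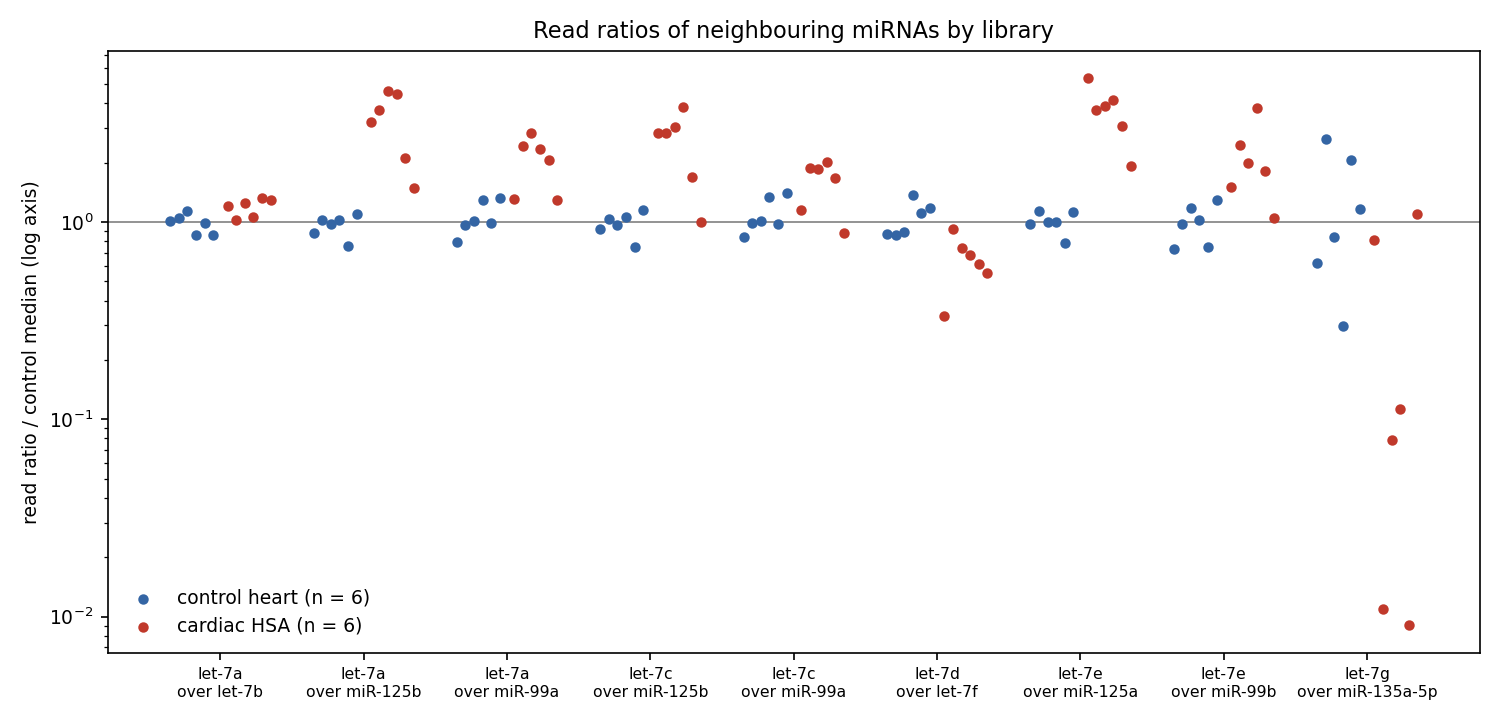
Ratio of reads between neighboring miRNAs in each library, divided by the median ratio of the control libraries, on a log axis. Each point is 1 library, blue for control and red for cardiac HSA, 6 each, and the horizontal line is the control median. The red points of let-7e over miR-125a and of let-7a over miR-125b lie above all blue points, and those of let-7g over miR-135a-5p spread downward.

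The miRNAs most alike to the family in their pattern were found by Pearson's r between log2 levels and the log2 level of the summed family, among 181 other miRNAs with a mean of at least 10 CPM. Over the 12 libraries these were miR-320 (r = 0.71), miR-486 (0.70), miR-30a (0.64), miR-92a (0.64) and miR-193a (0.62). After removal of the group means they were miR-320 (0.75), miR-486 (0.68), miR-204 (0.67), miR-429 (0.65) and miR-145 (0.65). miR-486 is abundant in red blood cells, miR-145 in smooth muscle and miR-429 in epithelium. No p is given, since all points share the library and its scaling and the 5 highest of many were taken.

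Markers of other cell types differed between the groups as well. Called higher in cardiac HSA were 3 of 3 listed miRNAs of myeloid and lymphoid cells, 1 of 3 of red blood cells and 2 of 7 of epithelium, of which 3 were tested, against 18.7% of all tested miRNAs called higher, and none of these lists had a miRNA called lower. miR-486 of the red blood cell list was at -1.33 (edgeR adjusted p = 0.0205) and was not called. The summed level of the myeloid and lymphoid list was 188 to 313 CPM in control and 473 to 2960 CPM in cardiac HSA. The erythroid list summed to 20849 to 29968 CPM in control and 5704 to 47439 CPM in cardiac HSA. The epithelial list, which heart tissue should lack, summed to 7.74 to 20.8 CPM in control and 43.1 to 3282 CPM in cardiac HSA. miR-126, the endothelial marker, ran from 2369 to 4209 CPM and from 943 to 4291 CPM and was not called, nor was any of the 8 muscle miRNAs. No listed marker was at 0 in all 12 libraries, and the part of these cell types in the members' differences was not tested.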

How the data were processed

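Small RNA libraries of 12 canine FFPE hearts were analyzed. Splenic libraries were not analyzed here. The authors trimmed reads with Cutadapt, aligned them with Bowtie to CanFam3.1, annotated them with miRBase and counted them with HTSeq. The authors deposited raw counts for 517 entries of a mature miRNA and precursor, and CPM made from these counts, which recomputation matched within 0.00499 CPM. The protocol names NEXTflex in the methods and another kit in the labels. Whether reads that fit several members were counted once is not given in the sources used here. 2 entries of let-7a differed by 0.500% to 0.704%. Members, lists and tests were chosen with earlier results of these data known. The neighbor ratios, the background of those over miR-99 and miR-125, and the fits with kept factors were added after the data were seen.

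Entries identical in name and counts (43) were merged, and 244 entries of 225 mature miRNAs passed edgeR's default filter. Fits used R 4.3.3 and edgeR 4.0.16 (quasi-likelihood F test, TMM factors), with DESeq2 1.42.0 and limma 3.58.1 (log2 of CPM plus 1) as alternatives. Only the edgeR fit was run on simulated counts. As many miRNAs were set to rise as to fall in them, so that run does not bear on the choice of scaling. Standard errors were obtained by dividing each log2 fold change by the root of its F statistic. p was adjusted over all tested entries. Each library is a separate dog, so 6 against 6 were compared. Replicate numbers gave correlations of -0.30 to 0.08 and do not pair dogs. Named were all members, the listed cluster neighbors and the 5 miRNAs most alike to the summed family by each of 2 measures, and markers only as lists. miR-135a-5p was added as a neighbor. Limits for a count of 0 cover counting error only. Whether molecular identifiers entered the counts is not given in the sources used here.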

Additional observations from a re-analysis of the deposited data

Results flagged for a closer look

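In cardiac HSA 1 library stood apart from the other 5 by Dixon's test for 3 members, in each case HSA replicate 4 as the highest. Its cfa-let-7a level was 89615 CPM against 55108 CPM in the next library, its cfa-let-7b level 15826 CPM against 8249 CPM, and its cfa-let-7c level 10137 CPM against 5727 CPM. Of 54 groups of 6 values examined, chance flags about 5%. The same library held 31.6% of its counts in the family, the highest share of the 12, and the lowest share of cfa-let-7g within the family, 10.4%.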

How the results depend on the processing

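The count of called members was 0 under most alternatives. It was 1 with library-size scaling and with limma on deposited CPM (cfa-miR-98 at 1.08 and 1.11), and 0 to 2 when a library was left out, with 2 (cfa-let-7c -1.06, cfa-let-7d -1.15) without HSA replicate 4 and 0 there with the factors of all 12 libraries kept. Small differences changed sign. With library-size scaling cfa-let-7a, cfa-let-7b, cfa-let-7c and cfa-let-7g were at 0.40, 0.14, 0.012 and 0.17, and with limma at 0.42, 0.15, 0.0084 and 0.24. Library-size scaling put cfa-let-7e and cfa-let-7f at 0.59 and 0.54, and limma put them at 0.59 and 0.59. The sum moved to 0.36 with library-size scaling. With a library left out and the factors of all 12 libraries kept, the sum ran from -0.32 to -0.096. cfa-let-7e and cfa-let-7f were at -0.051 and -0.051 with DESeq2, -0.045 and -0.046 with median-of-ratios factors, -0.048 and -0.029 with upper quartile factors, -0.084 and -0.082 without the muscle miRNAs in the factors, -0.034 and -0.041 without the family in them, -0.023 and -0.020 with no filter, and -0.054 and -0.056 with 1 entry per miRNA. Leaving out a library, with either kind of factors, gave -0.44 to 0.080 for cfa-let-7e, -0.39 to 0.12 for cfa-let-7f and -0.028 to 0.026 for the share of cfa-let-7a, and 2 to 4 called neighbors. With the replicate block, all calls fell from 58 to 6, members stayed at 0, cfa-let-7e and cfa-let-7f were at -0.029 and -0.034, the cfa-let-7a share at -0.0019, and the edgeR adjusted p of the cfa-miR-98 share was 0.0153. With a library left out, 24 to 65 of all tested miRNAs were called, fewest without control replicate 5. The cause of these changes was not tested. Depth limits cfa-let-7d most, with 98 reads in HSA replicate 1.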
